A study of Mus musculus with 3 samples.

Results

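Signals of 9 genes that write, remove or read DNA methylation were examined in mouse neurospheres, out of 22180 genes named on the arrays. The members were fixed by name: the writers Dnmt1, Dnmt3a and Dnmt3b, the erasers Tet1, Tet2 and Tet3, the methyl-CpG readers Mbd1 and Mbd2, and Uhrf1, which reads half-methylated DNA for Dnmt1. All 9 were found, each with 1 probe set that carried that gene symbol alone, so no choice between probe sets was needed. The study hybridised biotin-labelled total RNA to 3 expression arrays, all of 1 group. The group is wild-type CD1 neurospheres, free-floating colonies of cultured neural precursors, from the ventricular-subventricular zone (V-SVZ) of pups at postnatal day 8, where the growth protocol gives day 7 or 8. Cells were plated at 10 cells per microlitre without attachment and grown for 7 days in medium holding FGF at 10 ng/ml, EGF at 20 ng/ml, heparin at 2 micrograms/ml and 2% B27 supplement. Pups were cultured apart per the protocol. No label ties an array to a single pup, so the p-values measure only the spread between these arrays, and the spread between arrays may be technical. There is no second genotype, treatment or time, and RNA of whole cultures cannot tell fewer cells of a type from less RNA per cell.

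DNA methylation in mammals is laid down mostly on cytosines of CpG dinucleotides. DNMT3A and DNMT3B add it to unmethylated DNA, and DNMT1, brought to replicated DNA by UHRF1, copies it to the new strand. The TET enzymes oxidise methylcytosine, which starts its removal through base excision repair or through loss at replication, and MBD proteins bind methylated CpG and bring in repressor complexes. In the developing forebrain some of these genes are known for holding glial genes silent during neurogenesis, and some for maintaining the postnatal stem cell pool.

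The sequence before the gene, with its CpG marked, is shown for 3 members (the maintenance pair, and Dnmt3b, whose call depended on the reference level). For comparison it is also shown for 2 germline genes, Dazl and Mael, that are known to be silenced by promoter methylation in body cells. Whether DNA methylation proteins act on these stretches in the cultures was not measured. Each run is the stretch directly before the gene on its own strand, 5′ to 3′, taken from RefSeq on build GRCm38.p6, and capitals mark every CpG (the letters CG, the same on both strands). The stretches are chr9:20959889-20960138 on the minus strand for Dnmt1, chr17:56303087-56303336 on the plus strand for Uhrf1, chr2:153649199-153649410 on the plus strand for Dnmt3b, chr17:50293621-50293870 on the minus strand for Dazl and chr1:166238745-166238994 on the minus strand for Mael. All 5 lie outside any annotated gene.
Dnmt1: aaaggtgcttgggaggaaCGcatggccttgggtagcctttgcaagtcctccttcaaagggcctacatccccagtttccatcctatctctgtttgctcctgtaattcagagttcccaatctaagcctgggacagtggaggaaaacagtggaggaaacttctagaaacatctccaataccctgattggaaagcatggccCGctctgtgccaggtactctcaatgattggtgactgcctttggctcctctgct
Uhrf1: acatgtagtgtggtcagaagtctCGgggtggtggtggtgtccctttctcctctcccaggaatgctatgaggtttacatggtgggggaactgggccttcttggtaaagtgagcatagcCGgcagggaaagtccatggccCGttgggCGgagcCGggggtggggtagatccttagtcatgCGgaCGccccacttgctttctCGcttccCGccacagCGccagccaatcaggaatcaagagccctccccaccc
Dnmt3b: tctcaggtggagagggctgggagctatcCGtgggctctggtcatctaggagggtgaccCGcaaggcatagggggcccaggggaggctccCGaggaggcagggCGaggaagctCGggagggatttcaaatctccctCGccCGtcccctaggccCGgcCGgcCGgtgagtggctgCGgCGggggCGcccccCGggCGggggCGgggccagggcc
Dazl: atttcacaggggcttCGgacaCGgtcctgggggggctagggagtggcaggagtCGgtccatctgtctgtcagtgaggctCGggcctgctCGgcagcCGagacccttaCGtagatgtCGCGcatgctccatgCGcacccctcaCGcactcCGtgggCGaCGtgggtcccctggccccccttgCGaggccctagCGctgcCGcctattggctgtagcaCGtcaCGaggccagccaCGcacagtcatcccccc
Mael: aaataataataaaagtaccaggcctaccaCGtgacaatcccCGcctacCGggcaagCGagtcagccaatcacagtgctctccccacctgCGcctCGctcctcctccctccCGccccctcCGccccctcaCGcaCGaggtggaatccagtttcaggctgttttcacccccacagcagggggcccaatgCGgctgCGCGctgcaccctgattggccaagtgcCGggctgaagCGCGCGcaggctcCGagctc
Dnmt1 has 2 CpG in these 250 bases, Uhrf1 has 10, Dazl has 20 and Mael has 18, and Dnmt3b has 16 in the 212 bases that lie outside the gene. Other members, and other listed starts of Dnmt1 and Uhrf1, have more CpG, as counted further on, so these runs do not stand for all members.

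All 9 genes had signals above a reference level for unspecific signal. For 8 of them the call held at every reference level tried, and for Dnmt3b it did not. The deposited values are log2 signals, on which 1 unit is a doubling. As the arrays hold no second group, each gene was set against a reference level on the same array, the 95th percentile of 1400 probe sets for olfactory and vomeronasal receptors, which belong to the sensory epithelia of the nose. That level was 5.63 on array 1, 5.53 on array 2 and 5.71 on array 3. A gene was called above it by limma's one-sided moderated test with a Benjamini-Hochberg adjusted p under 0.05 over all 22180 genes. Of all genes 59.1% were called, so a call alone is common, and the size of each margin is given below. As a description, the median margin was 3.27 over the 9 members and 0.76 over all genes. Levels and margins of different genes are not ranked, because probes of different genes bind with different strength.

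**Figure D1:**
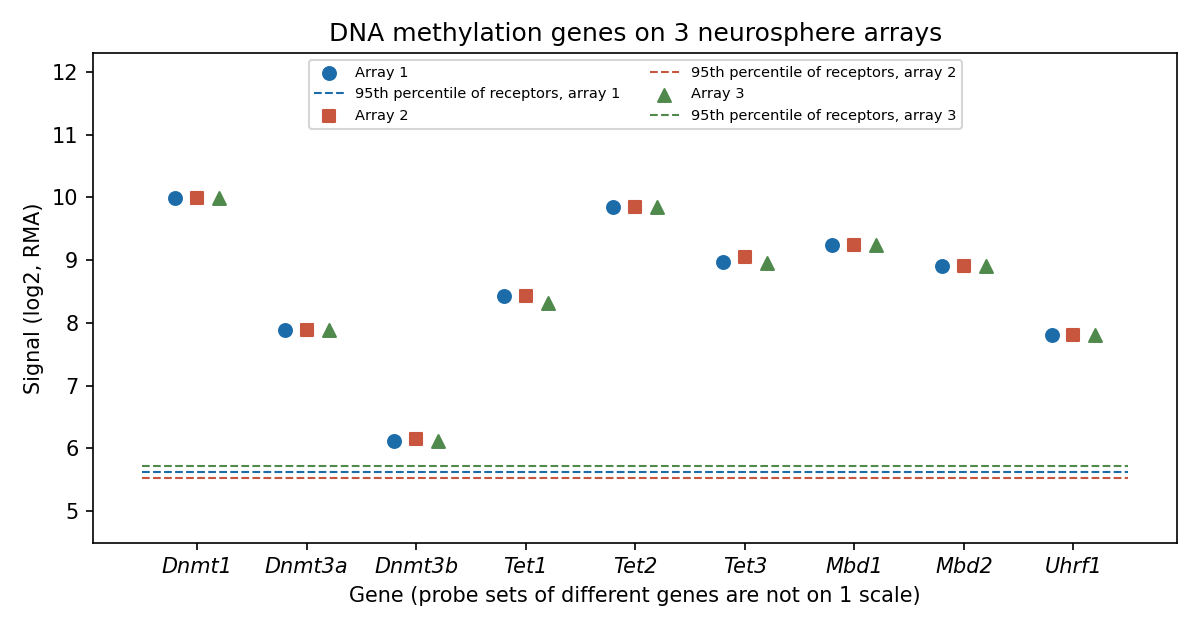
Signal (log2, vertical axis) of the 9 genes on each of the 3 arrays (points), with the reference level of each array as a dashed line. All points lie above the lines, those of Dnmt3b at 6.12 to 6.15 and those of Dnmt1 at 10.00.

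The maintenance pair was measured first. Dnmt1, the copying methyltransferase, had 10.00 on each of the 3 arrays and a margin of 4.37 ± 0.091 (SD, n = 3) over the reference level. Uhrf1, its guide to replicated DNA, had 7.81 on each array and a margin of 2.19 ± 0.091 (SD, n = 3). Neither signal differed between arrays in the deposited values, so the SD of these margins is that of the reference level alone. On arrays 1 and 2 only 1 of 1400 receptor probe sets was brighter than either gene, and on array 3 this was 1 for Dnmt1 and 2 for Uhrf1. The receptor brighter than all 9 genes was Vmn1r233, with a mean of 11.86, far from the next receptor at 7.43.

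Both de novo writers were above the reference level, and the call of Dnmt3b depended on how that level was set. Dnmt3a, the main de novo enzyme of the postnatal brain, had 7.88 on each array, 2.26 ± 0.091 (SD, n = 3) above the reference level. Dnmt3b, the de novo enzyme best known from early embryos, had 6.12, 6.15 and 6.12 on arrays 1, 2 and 3. Its margins were 0.49, 0.62 and 0.41, with a mean of 0.51 ± 0.10 (SD, n = 3), so it was above the reference level on all 3 arrays. On array 1, 29 of 1400 receptor probe sets were brighter (2.07%), on array 2 it was 14 (1.00%) and on array 3 it was 39 (2.79%). The limma adjusted p of Dnmt3b was 1.57e-10, which rests on a spread of margins pooled over genes of like signal. That spread includes the spread of the reference level, which is common to all genes. An exact test by turning the sign of each array's margin cannot go below a one-sided p of 0.125 with 3 arrays. Dnmt3b was not called when the level was the 99th percentile of the receptors (margin -0.27) or the 95th percentile of 139 probe sets for bitter taste receptors, defensins and keratin-associated proteins (margin -0.32). On array 2 alone it was over both of these levels, which were 6.09 and 6.11 there.

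**Figure D2:**
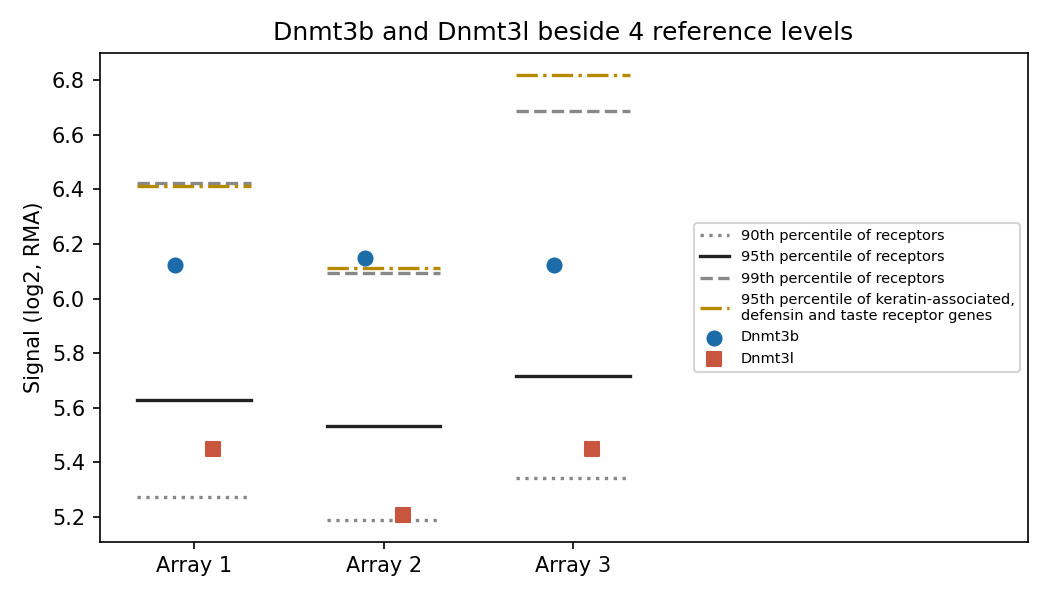
Signal (log2, vertical axis) of Dnmt3b (circles) and Dnmt3l (squares) on each array, with 4 reference levels as horizontal lines. Dnmt3b lies above the 95th percentile of the receptors on every array and above the 99th on array 2 only, while Dnmt3l lies under the 95th percentile on every array.

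All 3 TET genes were well above the reference level. Tet1 had 8.43, 8.43 and 8.32 on arrays 1, 2 and 3 (mean 8.39 ± 0.060, SD, n = 3), with a margin of 2.77 ± 0.14. Its value on array 3 was the lowest. Tet2 had 9.85 on each array, 4.22 ± 0.091 above the reference level. Tet3, which unlike Tet2 carries a DNA-binding CXXC domain, had 8.97, 9.04 and 8.95 (mean 8.99 ± 0.049, SD, n = 3) and a margin of 3.36 ± 0.14. Its highest value was on array 2. On every array the 3 genes had 1 brighter receptor probe set of 1400.

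Both methyl-CpG readers were also above the reference level. Mbd1, which binds methylated CpG and also carries CXXC domains, had 9.25 on each array and a margin of 3.62 ± 0.091 (SD, n = 3). Mbd2, which recruits the NuRD repressor complex to methylated DNA, had 8.90 on each array and a margin of 3.27 ± 0.091. No array stood apart for either gene. Over the members, all 9 exceeded the reference level on each of the 3 arrays, as did 59.6% of all genes, and 8, all but Dnmt3b, also exceeded the 99th percentile of the receptors on each array, as did 46.5% of all genes.

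The spread of the members between arrays was described by the range of their deposited values. The widest range over the 3 arrays was 0.10 log2 units for Tet1, followed by 0.093 for Tet3 and 0.025 for Dnmt3b. Of the 9 genes, 6 had exactly equal deposited values on all 3 arrays (Dnmt1, Dnmt3a, Uhrf1, Tet2, Mbd1 and Mbd2). Equal values were common: 37.2% of the 13102 genes above the reference level had them, and an SD of 0 understates the true spread. The median range of the 13102 genes was 0.030 log2 units, and 29% of them had a wider range than Tet1. An F test set each gene's variance between arrays against the variance that limma expects for genes of like signal. It called 0 of 22180 genes (0%), with 0 at an unadjusted p under 0.05. The test thus separated no gene from the rest and says nothing about how stable the members were.

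**Figure D3:**
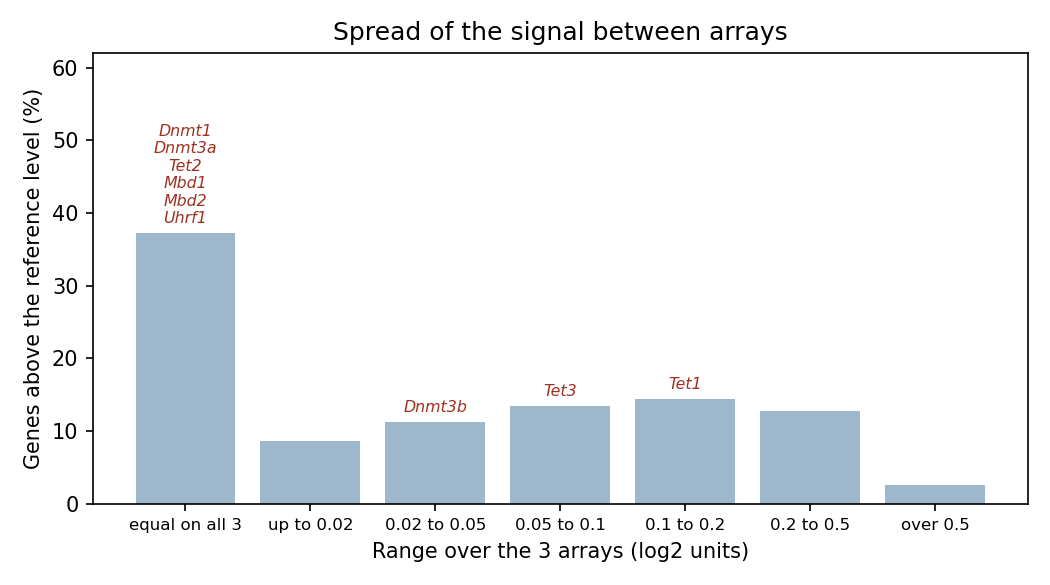
Share of the 13102 genes above the reference level (percent, vertical axis) by the range of the signal over the 3 arrays (log2 units, horizontal axis), with each of the 9 genes named above its bar. In the bar of equal values, which holds 37.2% of these genes, are 6 of the 9, and none of the 9 had a range over 0.2.

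Tet1, with the widest range, was compared with 13101 other genes above the reference level by the distance between centred values over the 3 arrays. The most alike were Faim2 (6.58, 6.58 and 6.48), Pogz (10.48, 10.48 and 10.38) and Mir99ahg (9.32, 9.32 and 9.21), each within 4.64e-05 log2 units of its pattern. As 1462 genes lay within 0.05 log2 units, 3 arrays give a weak basis for likeness.

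Among partners of the writers, 9 of 10 measured genes were called (90%, against 59.1% of all genes), with a median margin of 3.002, and the cofactor gene Dnmt3l was not. With the 99th percentile, or with the other reference families, 7 of the 10 were called, against 44.9% and 43.4% of all genes. Dnmt3l, the inactive relative that stimulates DNMT3A in germ cells, had 5.45, 5.21 and 5.45, under the reference level on each array (margin -0.26). Uhrf2, a relative of Uhrf1, had 9.97, 10.03 and 9.96. Pcna, the sliding clamp to which DNMT1 binds at the replication fork, had 11.16 on each array, and Cdca7, which recruits the remodeller HELLS, had 8.93, 8.93 and 8.87. Hells itself, a chromatin remodeller needed for methylation of repeats, had 6.85, 6.85 and 6.58, lowest on array 3. Its margin was 1.13, and it was not called with the 99th percentile as the level (margin 0.36, limma adjusted p = 0.107) or with the other reference families (margin 0.31, limma adjusted p = 0.251). Dmap1, a DNMT1-binding protein gene named here after its values were seen, was not called at these levels either (margins 0.36 and 0.31, limma adjusted p = 0.105 and 0.248).

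Methyl groups come from S-adenosylmethionine, and 4 of 6 measured genes of its supply and clearance were called, a share (66.7%) near that of all genes. The list's median margin was 1.87. Mat2b, a regulatory subunit of the synthetase outside the liver, had 7.08, 7.25 and 7.08, Mtr, methionine synthase, had 7.80, 7.99 and 7.76, and Ahcyl1, a relative of the hydrolase Ahcy, had 11.26 on each array. Ahcy, which clears the product of methylation, had 8.55, 8.84 and 8.46 with its brighter probe set and 4.01, 4.16 and 3.74 with a second one, so its probe sets disagreed. Those not called were 2 genes known for their high level in liver, Mat1a (5.31, 5.27 and 5.31) and Gnmt (4.94 on each array).

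Genes of oxidation support and base excision were called in 13 of 14 measured cases (92.9%, against 59.1% of all genes), with a median margin of 3.31. Mbd4, a glycosylase that binds methylated CpG, had 7.06, 7.20 and 7.06. Xrcc1, a repair scaffold, had 7.77, 7.82 and 7.64, and Lig3, its partner ligase, had 9.75 on each array. Smug1, a uracil glycosylase, had 6.20 on each array, a margin of 0.57. It was not called with the 99th percentile as the level (margin -0.21) or with the other reference families (margin -0.25). At these levels 12 of the 14 were called, against 44.9% and 43.4% of all genes. Dppa3, which guards methylation in the early embryo, was not called, at 4.81 on each array.

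Other readers of CpG and the NuRD complex completed the pathway. Of 9 measured readers 7 were called (77.8%, against 59.1% of all genes), with a median margin of 2.33. Among them were Mbd3 (8.91, 8.91 and 8.94), a NuRD subunit, Mbd6 (8.003, 8.007 and 7.848), and the zinc finger genes Zbtb33 (9.85, 9.86 and 9.82) and Zbtb4 (7.50 on each array). The relatives Mbd3l1 (3.73, 3.63 and 3.73) and Mbd3l2 (4.26 on each array), known from the germline, were not called. All 11 NuRD genes were called (100%, against 59.1% of all genes), with a median margin of 4.69. These included the helicase genes Chd4 (10.74, 10.75 and 10.74) and Chd3 and the deacetylase genes Hdac1 (9.54 on each array) and Hdac2 (10.86, 10.85 and 10.85). Chd3 had 8.45 with its brighter probe set and 6.10 with the other, and Rbbp4, named here for the same disagreement, had 11.97 and 4.29. Over these 5 lists 44 of 50 measured genes were called (88%, against 59.1% of all genes).

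Genes that DNA methylation is known to keep silent outside the germline were not above the reference level. Of 12 measured germline genes 0 were called by limma, and 0 had an unadjusted p under 0.05, while 40.9% of all genes were not called. The list was picked as genes silent outside the germline, so this count is a description and tests nothing. None exceeded the reference level on any array, although 10 of the 12 exceeded the median of the receptors on each array, and the list's median margin was -1.04. Dazl, a germ cell RNA-binding protein gene, had 5.01, 5.10 and 4.90, and Ddx4, a germ cell helicase gene, had 5.13, 5.32 and 5.13. Mael and Asz1, which protect germ cells from transposons, had 3.88, 3.97 and 3.88, and 4.11, 4.11 and 3.73. On array 1, 208 of 1400 receptor probe sets were brighter than Dazl and 667 were brighter than Mael. DNA methylation itself was not measured here, and a signal under the reference level does not show that a transcript was absent.

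**Figure D4:**
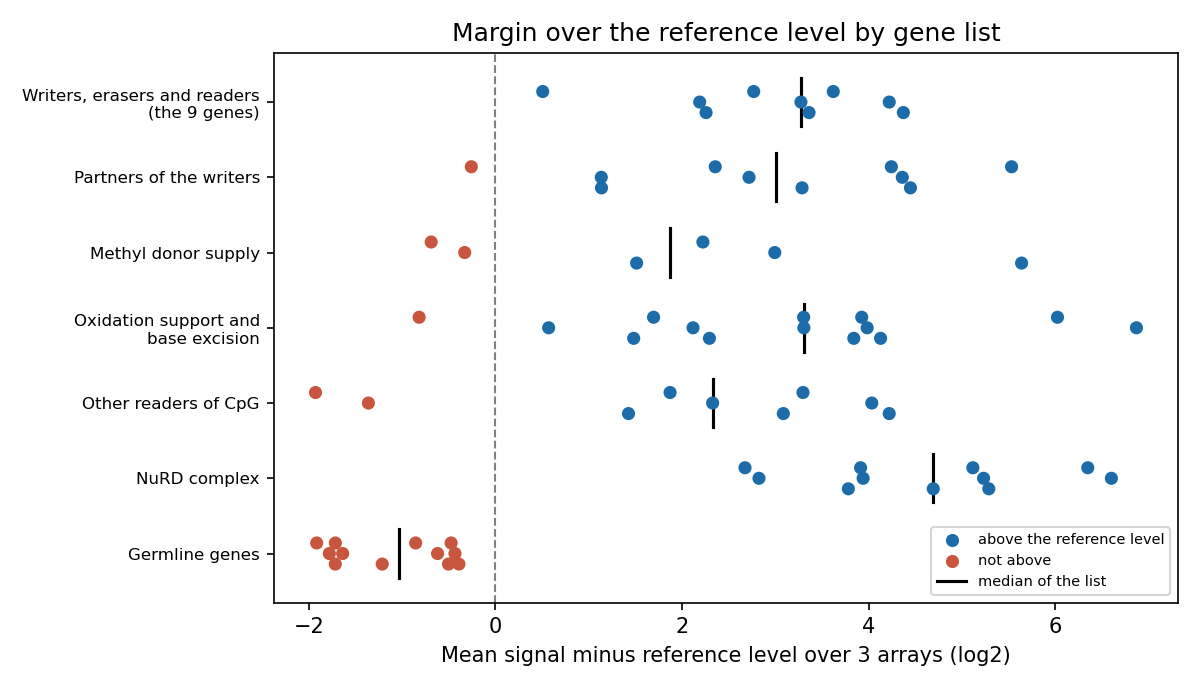
Mean signal minus the reference level (log2, horizontal axis) of each gene of the 9 members and of 6 lists (rows), with the median of each list as a black bar and the genes not called in red. The 12 germline genes all lie left of 0, and the 11 NuRD genes and the 9 members all lie right of it.

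CpG content before the start of the gene was a feature that the choice of members had not used. RefSeq windows on GRCm38.p6 were matched for 7 of the 9 members and 11 of the 12 measured germline genes, and CpG was counted in the 250 bases before the outermost start listed. A gene's annotated span can begin before that start, so part of such a window can lie inside the gene, as for Dnmt3b, whose printed run is the part outside. The median over 27025 genes was 6 CpG, and 46.6% of them had more. Above that median were 6 of the 7 members, with Tet2 at 51 (0.1% of all genes had at least as many), Dnmt3a at 38 (1.8%), Dnmt3b at 21 (16.1%), Tet3 at 17 (23.5%), Tet1 at 15 (27.5%) and Uhrf1 at 10 (38.2%). Dnmt1 had 2 at its outermost start (80.5% of genes had at least as many) but 26 before another of its 3 listed starts, and Uhrf1 had 30 before its other start. All 11 germline genes were above the median too, from 11 to 31 CpG with a median of 18. They were listed because DNA methylation is known to silence them, so their choice was not independent of CpG content. Dnmt3l had 5. Which start these cultures used was not measured, and the count is a description with no test.

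**Figure D5:**
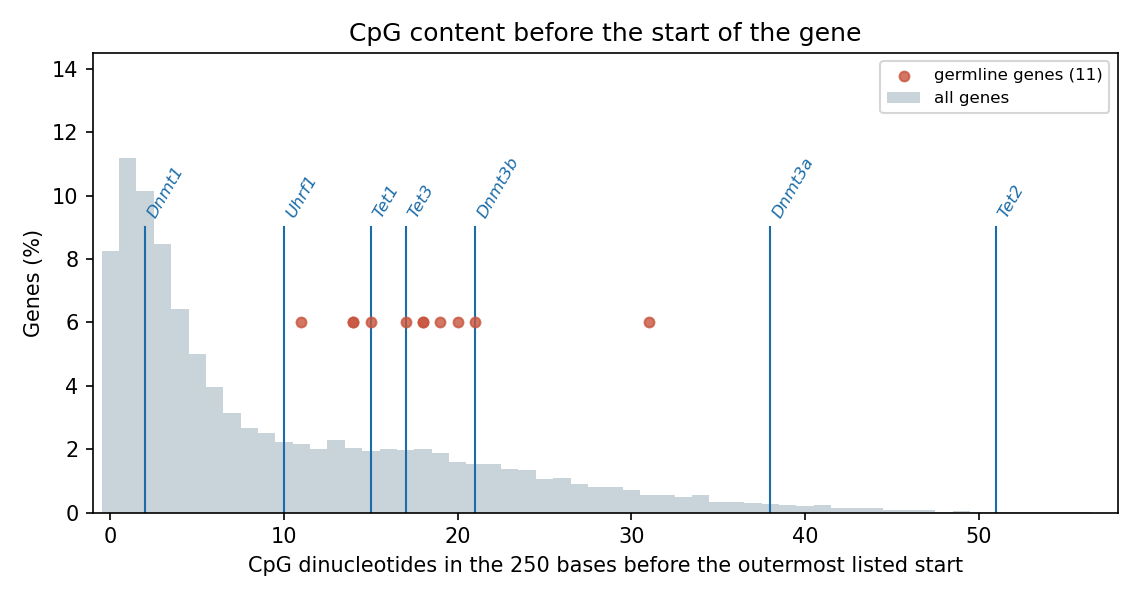
Number of CpG in the 250 bases before the outermost listed start (horizontal axis) for all 27025 genes (grey bars, percent of genes), 7 members (blue lines) and 11 germline genes (red points, at an arbitrary height). The members spread from 2 for Dnmt1 to 51 for Tet2, and the germline genes from 11 to 31.

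The cell type label was checked with marker lists. All 9 measured neural stem and precursor markers were called, with means from 8.50 (Nes) to 13.73 (Fabp7). Markers of other cells were called in 2 of 7 cases for microglia, 1 of 6 for endothelium, 2 of 5 for ependyma, 3 of 5 for mature neurons, 3 of 5 for mature oligodendrocytes and 0 of 3 measured for red blood cells, against 59.1% of all genes. Among those called were Mbp of oligodendrocytes (8.72), Snap25 of neurons (8.57) and Foxj1 of ependyma (7.86), chosen here after their values were seen. The part of such cells in the members' signals was not tested. The array medians over all 41345 probe sets were 5.87, 5.85 and 5.86, and for arrays the number of samples, n = 3, limits the precision.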

How the data were processed

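Gene expression was measured on 3 arrays of 1 group. The authors deposited log2 signals of 41345 probe sets. The submitters' processing notes name RMA, a method that corrects background, normalises between arrays and summarises probes, with version and options not given in the sources used here. Gene symbols came from the platform's annotation table: 23521 probe sets carried 1 symbol, 1814 several and 16010 none. Only the first were named, as 22180 genes, and for 1082 genes with several probe sets the one with the highest mean was used.

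From these values each gene's signal minus the reference level of its array (95th percentile of 1400 receptor probe sets) was tested in limma 3.58.1 (R 4.3.3) with an intercept and an intensity trend, one-sided, Benjamini-Hochberg adjusted. The prior degrees of freedom were infinite, so p-values rest on a spread of margins shared by genes of like signal. The spread of the common reference level is part of it. Each gene's variance between arrays was divided by the variance that limma expects for genes of like signal, and this ratio was tested by an F distribution. The steps were tested on simulated data without exactly equal values. Of all genes 39.4% had equal deposited values on all 3 arrays, a case the simulation did not cover. Figures were drawn with matplotlib 3.10.9.

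The members and lists were chosen with earlier results of these data known. Named were all 9 members and, per list, the first 4 genes above and the first 4 not above, in the order written, with exceptions marked. Of 72 listed pathway genes 62 were measured, and the others were not analysed here. Alternatives changed the reference percentile (90, 99), the reference genes, the probe set, the scaling, the model and a filter on low values, and left out each replicate.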

Additional observations from a re-analysis of the deposited data

How the results depend on the processing

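Of the 9 members, 8 kept a call under all 12 alternatives, with margins of at least 1.37 log2 units. Not all of the 12 could change a member's call, as stated below for each such case. Dnmt3b was called under the other settings, but its margin turned to -0.27 (limma adjusted p = 1) with the 99th percentile of the receptors and to -0.32 (adjusted p = 1) with the other reference families, because both levels are higher. Without 1 replicate its margin was 0.45 to 0.56, and 0.86 with the 90th percentile. The count of all genes called was 14790 (66.7%) with the 90th percentile, 9962 (44.9%) with the 99th and 9630 (43.4%) with the other families, and 12502 to 13022 without 1 replicate. The filter on low values kept 12747 genes, all of them called, so it could not undo the call of a gene it kept. The filter removed all 12 germline genes, and the other 11 alternatives called 0 of the 12. The variance test, which called no gene, gives no information on the members. Subtracting array medians moves signals and reference level alike, so it cannot change a margin. Taking the median over probe sets leaves a member's values as they are, because each member has 1 probe set. No paired analysis was possible because the series holds 1 group. The deposited values give no probe-level background, which limits what can be said of signals near the reference level, Dnmt3b and Smug1 among them.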
